A study of Mus musculus with 25 samples.

Results

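The 10 neuropeptide genes followed here were Calca, Calcb, Tac1, Penk, Npy, Cck, Vip, Sst, Cartpt and Adcyap1, chosen by name from the 50559 genes of the deposited count table as precursors of peptides linked to spinal cholinergic neurons. All 10 had at least 10 counts summed over the immunoprecipitated (IP) libraries and stayed among the 21738 genes tested. In the IP libraries 6 of the 10 were read at an intermediate or high level and 4 (Adcyap1, Npy, Tac1 and Vip) at a low one. Calcb, Cartpt, Calca and Cck were enriched over whole spinal cord in every IP library. Tac1, Npy and Sst were depleted in every one, so the data do not mark those 3 as cholinergic neuron genes. Depletion cannot exclude them from part of these neurons, since only 1 of 6 visceral motor neuron markers was above whole cord. No peptide gene passed the test between ChAT-BKO and control mice at either time of day, and 1 gene, Calcb, was higher at ZT20 than at ZT8 by a test it passed narrowly.

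The libraries came from spinal cords of male mice about 6 months old. All mice, controls included, carried ChAT-Cre and 1 RiboTag allele (ChAT-Cre;RiboTag fx/+), so that Cre made in cells with an active Chat gene placed a hemagglutinin tag on a ribosomal protein, and mRNA bound to tagged ribosomes was pulled down. ChAT-BKO mice carried Bmal1 fx/fx in addition (ChAT-Cre;RiboTag fx/+;Bmal1 fx/fx) and lost the core clock gene in the same cells. Cords were taken at ZT8, in the light period, or at ZT20, in the dark period, from 6 mice per genotype and time, and 1 pooled input library of whole cord RNA accompanied the 24 IP libraries. Because ChAT drives both the tag and the deletion, skeletal motor neurons, autonomic (visceral) motor neurons and cholinergic interneurons entered the same library. In such bulk libraries fewer cells of a type and less mRNA per cell cannot be told apart.

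Neuropeptides are cut from precursor proteins in the secretory pathway, packed into dense core vesicles and released beside the fast transmitter, after which they act on G protein-coupled receptors. Spinal motor neurons are known for calcitonin gene-related peptide (CGRP), which acts at the neuromuscular junction, whereas tachykinins, opioid peptides, neuropeptide Y and somatostatin are best known from dorsal horn interneurons and, in part, from sensory afferents. BMAL1 binds with CLOCK to E-box DNA to drive clock output genes.

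Depth ranged from 4035326 to 31685171 counts over the 24 IP libraries and was 7396568 counts in the input, so that 3 counts corresponded to 0.0947 to 0.743 CPM, the count scaled to the size of its library. All 8 cholinergic markers (Chat, Slc18a3 and others) were above the input, with a median log2 ratio of 2.37, as were 8 of 10 skeletal motor neuron markers, with a median of 2.07. Of 6 visceral motor neuron markers 1 was above the input, and none of the 9 sensory neuron, 7 excitatory interneuron, 7 inhibitory interneuron, 6 oligodendrocyte, 6 astrocyte or 6 microglia markers was. None of these markers was at 0 in every IP library. Arntl, which encodes BMAL1, was lower in ChAT-BKO by -1.64 ± 0.16 (log2 fold change ± SE) at ZT8 and by -2.08 ± 0.16 at ZT20, with edgeR adjusted p = 1.56e-05 and 1.98e-07.

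For 8 of the 10 genes a RefSeq promoter window on GRCm38.p6, from 250 bases before to 50 after the transcription start, was at hand. The windows of Calca, Cck, Tac1 and Sst are printed as examples that hold letters that a clock factor or a cAMP-responsive factor can bind. The window of Cartpt holds such letters too and is not printed. Capitals mark CACGTG (the E-box bound by BMAL1 and CLOCK) and the cAMP response element forms TGACGTCA and TGCGTCA, searched on both strands, so that TGCGTCA reads TGACGCA on the other strand. Positions are counted from the start, with bases before it negative.
Calca, chr7:114636308-114636607, minus strand, TGCGTCA at -65: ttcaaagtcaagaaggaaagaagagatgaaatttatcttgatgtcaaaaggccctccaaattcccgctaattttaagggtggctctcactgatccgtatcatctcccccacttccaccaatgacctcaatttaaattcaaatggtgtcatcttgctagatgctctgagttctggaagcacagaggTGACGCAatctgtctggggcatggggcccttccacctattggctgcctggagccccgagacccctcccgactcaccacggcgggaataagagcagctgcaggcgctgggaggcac
Cck, chr9:121495645-121495944, minus strand, CACGTG at -66 and TGCGTCA at -49: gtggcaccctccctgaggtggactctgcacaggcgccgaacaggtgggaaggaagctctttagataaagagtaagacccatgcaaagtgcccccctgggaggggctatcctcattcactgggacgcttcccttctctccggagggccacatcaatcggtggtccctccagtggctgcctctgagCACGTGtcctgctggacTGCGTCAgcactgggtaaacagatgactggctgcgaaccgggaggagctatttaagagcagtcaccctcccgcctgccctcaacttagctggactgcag
Tac1, chr6:7554811-7555110, plus strand, TGCGTCA at -199 and CACGTG at -61: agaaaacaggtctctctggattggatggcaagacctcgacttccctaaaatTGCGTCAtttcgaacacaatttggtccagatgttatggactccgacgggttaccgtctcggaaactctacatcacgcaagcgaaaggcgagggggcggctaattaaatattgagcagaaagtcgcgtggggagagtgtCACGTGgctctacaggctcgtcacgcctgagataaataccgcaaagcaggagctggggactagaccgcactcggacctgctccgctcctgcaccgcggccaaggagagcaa
Sst, chr16:23890795-23891094, minus strand, TGACGTCA at -48: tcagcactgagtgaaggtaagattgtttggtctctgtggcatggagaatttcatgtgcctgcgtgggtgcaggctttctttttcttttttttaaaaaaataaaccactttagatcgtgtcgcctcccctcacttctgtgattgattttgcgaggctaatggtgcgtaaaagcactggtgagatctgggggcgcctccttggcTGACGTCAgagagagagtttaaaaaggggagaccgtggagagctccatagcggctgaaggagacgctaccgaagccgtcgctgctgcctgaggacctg

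The E-box stood in the windows of 2 of the 8 genes (Cck and Tac1) and in 7.15% of all 32851 windows of this length. TGACGTCA stood in those of Cartpt and Sst, against 1.79% of all windows, and TGCGTCA in those of Calca, Cck and Tac1, against 2.12%. The shorter TGACGTC, looked for after the windows were seen and contained in TGACGTCA, was held by Adcyap1, Cartpt, Sst and Vip and by 3.21% of all windows. The D-box forms TTATGTAA and TTACGTAA, found in 0.938% and 0.119% of all windows, were in none of the 8. A match is a run of letters and not a binding site, and no binding was measured.

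Levels between genes were set side by side as CPM per kb of exon length, as means over the 24 IP libraries. Markers of other cell types were also read there. The 6 oligodendrocyte markers summed to 1660 to 2489 CPM and the 7 inhibitory interneuron markers to 431 to 592 CPM. The part of mRNA from other cells in the levels below was not tested. Calca, which encodes calcitonin and alpha-CGRP and whose isoforms were counted together, stood at the top at 210 ± 54.8 CPM per kb (SD, n = 24). Penk, the enkephalin precursor, followed at 139.9 ± 20.0, and Calcb, the beta-CGRP gene, at 91.5 ± 14.9. These 3 genes gave 72.0% to 75.8% of the summed CPM of the 10 in the 4 groups and 56.9% in the input.

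A middle tier held Cartpt (the precursor of cocaine- and amphetamine-regulated transcript peptides) at 73.8 ± 9.51 CPM per kb, Sst (somatostatin) at 67.3 ± 13.5 and Cck (cholecystokinin) at 50.3 ± 10.9. Below a gap lay Adcyap1 (pituitary adenylate cyclase-activating peptide, PACAP) at 6.93 ± 0.95, Npy (neuropeptide Y) at 3.87 ± 1.63, Tac1 (the substance P precursor) at 1.12 ± 0.30 and Vip (vasoactive intestinal peptide) at 0.47 ± 0.22. The gap between Cck and Adcyap1 was the only step at which the ranges over 24 libraries did not overlap. Within a library the upper gene of each neighbouring pair was the higher in all 24 libraries for 6 of the 9 steps, in 22 for Calcb over Cartpt and for Adcyap1 over Npy, and in 18 for Cartpt over Sst, so the last of these steps was the least secure. Counts were low for Vip (3 to 51 per IP library), Npy (9 to 56) and Tac1 (12 to 102), and firm for Calca (917 to 12049).

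In the input the order began with Sst at 143 CPM per kb, Penk at 127 and Calca at 44.2, followed by Cck at 27.2 and Npy at 25.3, with Calcb at 12.0, Cartpt at 10.9, Tac1 at 8.23, Adcyap1 at 7.19 and Vip at 0.954. In whole cord Npy thus stood between Calca and Calcb and Tac1 just below Cartpt, while in the IP libraries both lay far below these genes. The order in the input rests on 1 library without a replicate.

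**Figure D1:**
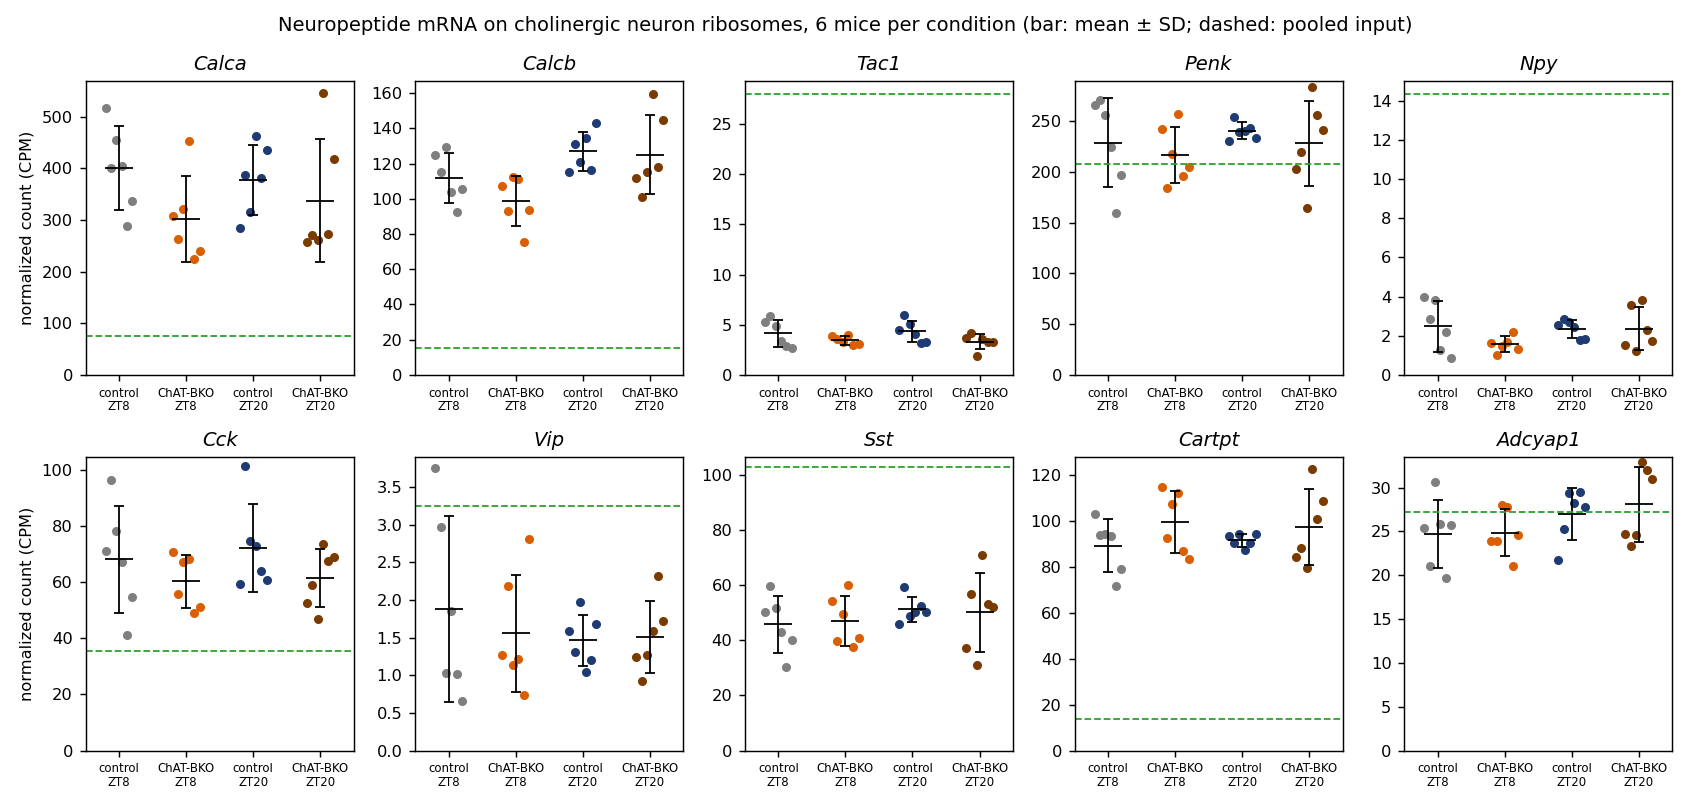
CPM of each peptide gene in every IP library (points, 6 mice per genotype and time), with the mean and SD as bars and the single pooled input as a dashed line. Calca, Calcb, Cartpt and Cck lie above the input line in all 24 libraries, while Tac1, Npy and Sst lie below it.

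Enrichment was taken as the log2 ratio of CPM in each IP library over the pooled input. It asks whether an mRNA weighs more on tagged ribosomes than in whole cord. Calcb was at 15.1 CPM in the input and at a mean of 115.6 in the IP, a mean log2 ratio of 2.90 (range over 24 libraries 2.30 to 3.38). For Cartpt the input gave 13.9 CPM and the IP 94.3, a mean log2 ratio of 2.73 (2.34 to 3.12), and for Calca 74.5 and 354, a mean of 2.20 (1.59 to 2.87). The 3 genes stood among the top 1% of all genes tested, at percentiles 99.7, 99.6 and 99.2, beside the medians of 2.37 for cholinergic and 2.07 for skeletal motor neuron markers. Calca mRNA is also abundant in sensory neurons, whose 9 markers summed to 9.20 to 27.1 CPM in the IP libraries and 135.3 CPM in the input.

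Cck was enriched by 0.85 (0.21 to 1.51), above the input in 24 of 24 libraries. Penk (0.13, above the input in 17 of 24) and Adcyap1 (-0.07, above it in 10 of 24) had ratios near 0. Since the median of all genes was -0.45 on this scale, both lay above the typical gene, at percentiles 67.1 and 62.0.

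Tac1 was at 28.0 CPM in the input and 3.82 in the IP, a mean log2 ratio of -2.87 (-3.77 to -2.20), and Npy at 14.3 and 2.19, a ratio of -2.73 (-3.84 to -1.80). These ratios lay near the median of the excitatory interneuron markers, -3.03, and below that of the inhibitory interneuron markers, -1.72. Sst had a ratio of -1.11 (-1.76 to -0.54) and Vip of -1.06 (-2.05 to 0.20, above the input in 1 of 24 libraries). In all, 5 of the 10 genes had a mean ratio above 0, against 36.3% of all genes tested. With TMM factors computed with the input among the libraries every ratio moved up by about the same amount, and Adcyap1 changed sign to 0.38, so no direction is given for it. There was no test, because the input was a single library.

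**Figure D2:**
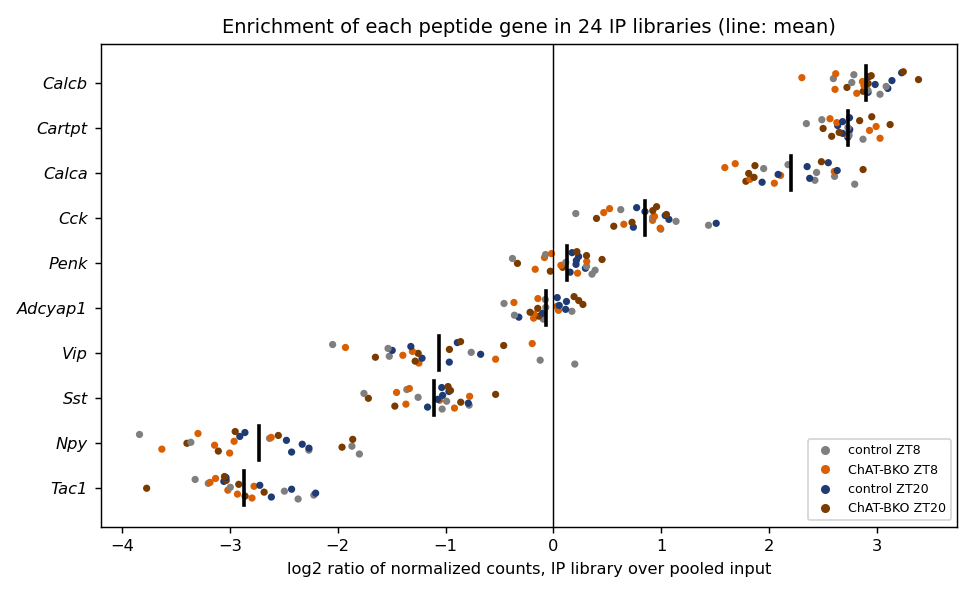
log2 ratio of CPM in each of 24 IP libraries over the pooled input, by gene, with the mean as a black line and the genotype and time of each library in colour. Calcb, Cartpt and Calca sit above 1.5 in every library and Tac1 below -2 in every one, with no separation of the 4 groups inside a gene.

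The comparison of ChAT-BKO with control mice asks whether loss of BMAL1 in cholinergic neurons alters the peptide mRNAs. At ZT8 none of the 10 genes passed edgeR at an adjusted p under 0.05, where 0.184% of all genes did. DESeq2 and limma voom called none either, and 2 of the 10 had an unadjusted edgeR p under 0.05, where 4.83% of all genes did. The median log2 fold change of the 10 was -0.17, against 0.00 for all genes, with 3 of the 10 above 0.

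Calca was the gene nearest to a call. Its lowest, median and highest values at ZT8 were 288, 402 and 517 CPM in controls and 224, 286 and 454 CPM in ChAT-BKO mice. The groups overlapped, but 3 of 6 ChAT-BKO libraries lay below all 6 controls. The log2 fold change was -0.40 ± 0.15 (SE; 95% interval -0.71 to -0.09), with an unadjusted edgeR p of 0.015 and an adjusted p of 0.882. Leaving out each library in turn gave -0.55 to -0.31, negative in 12 of 12 fits.

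The call on Calca depended on the model. With each library's length slope as a covariate, which is the slope of log2 CPM on log2 exon length over genes and tells how long against short mRNAs were recovered, the log2 fold change was -0.37 ± 0.07 and the edgeR adjusted p 0.0038, in a fit that called 0.754% of all genes. With the replicate number as a block, although the numbers were not shown to pair the libraries, it was -0.42 ± 0.07. The edgeR adjusted p was 0.0064, in a fit that called 0.317% of all genes. Over the alternatives that left no library out, the adjusted p ran from 0.0038 to 1. Sensory neuron markers summed to 10.9 to 20.9 CPM in the controls and 10.0 to 20.4 in ChAT-BKO mice at ZT8, and their part in the Calca values was not tested. Calca (chr7:114631478-114636357 on GRCm38) and Calcb (chr7:114718643-114723365) lie 1.32 and 1.40 Mb from Arntl, so DNA that travels with the floxed allele and the deletion itself cannot be told apart at these loci.

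Calcb, which makes the second CGRP, had a lowest, median and highest value at ZT8 of 92.3, 110 and 129.6 CPM in controls and 75.4, 100.5 and 112 in ChAT-BKO mice. The ranges overlapped, with 1 ChAT-BKO library below all controls, and the log2 fold change was -0.16 ± 0.09 (interval -0.36 to 0.03, adjusted p = 1 by edgeR). Calca and Calcb are paralogs, and reads shared by both were split by the quantification, so their values are not fully separate.

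Npy had the widest difference at ZT8. Its values were 0.853, 2.51 and 4.00 CPM (lowest, median, highest) in controls and 1.01, 1.56 and 2.20 in ChAT-BKO mice. The ChAT-BKO values lay wholly inside the range of the controls, and the log2 fold change of -0.67 ± 0.32 (interval -1.34 to -0.01) had an unadjusted edgeR p of 0.048 and an adjusted p of 1. Npy came from 9 to 49 counts per library in these groups.

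The tachykinin gene Tac1 (-0.25, interval -0.65 to 0.15), Cck (-0.17, -0.48 to 0.14) and Vip (-0.20, -0.97 to 0.56) had negative fold changes at ZT8 that did not pass the test. Penk (-0.07, -0.30 to 0.16), Sst (0.04, -0.24 to 0.33) and Adcyap1 (0.03, -0.17 to 0.23) had values near 0. For Cartpt 3 of 6 ChAT-BKO libraries exceeded the highest control and none fell short of the lowest, at 0.16 ± 0.09 (interval -0.03 to 0.36, adjusted p = 1 by edgeR), and it passed only with the length slope as a covariate (0.18, adjusted p = 0.0441).

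At ZT20 again none of the 10 genes passed edgeR, DESeq2 or limma voom, where 0.23% of all genes passed edgeR. None of the 10 had an unadjusted edgeR p under 0.05, where 6.28% of all genes did, and the median log2 fold change of the 10 was -0.07, against -0.01 for all genes. Tac1 stood lowest. It had values of 3.22, 4.27 and 5.94 CPM (lowest, median, highest) in controls and 1.90, 3.42 and 4.22 in ChAT-BKO mice. The groups overlapped, and the log2 fold change was -0.41 ± 0.20 (interval -0.83 to 0.02, adjusted p = 0.801 by edgeR).

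Cck at ZT20 ran from 59.5 through a median of 68.6 to 101 CPM in controls and from 46.9 through 63.2 to 73.7 in ChAT-BKO mice. Of the 6 ChAT-BKO libraries 3 lay below all controls, and the log2 fold change was -0.26 ± 0.12 (interval -0.51 to 0.00, adjusted p = 0.793 by edgeR), or -0.14 without replicate 2 of the controls, the library at 101 CPM.

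Calca at ZT20 had values of 285, 384 and 462 CPM in controls and 257, 272 and 546 in ChAT-BKO mice. Of 6 ChAT-BKO libraries 4 lay below all controls and 1 above all of them, and the log2 fold change was -0.17 ± 0.16 (interval -0.51 to 0.16, adjusted p = 0.902 by edgeR). Without 1 library it ran from -0.37 to -0.11, the lowest without replicate 4 of ChAT-BKO. The other 7 genes had log2 fold changes between -0.09 and 0.07, namely Calcb -0.03, Penk -0.09, Npy -0.07, Vip -0.02, Sst -0.06, Cartpt 0.07 and Adcyap1 0.03, with edgeR adjusted p-values of 0.914 or more. The intervals were widest for the low genes Npy (-0.63 to 0.48) and Vip (-0.52 to 0.48) and narrow for Cartpt (-0.10 to 0.24).

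**Figure D3:**
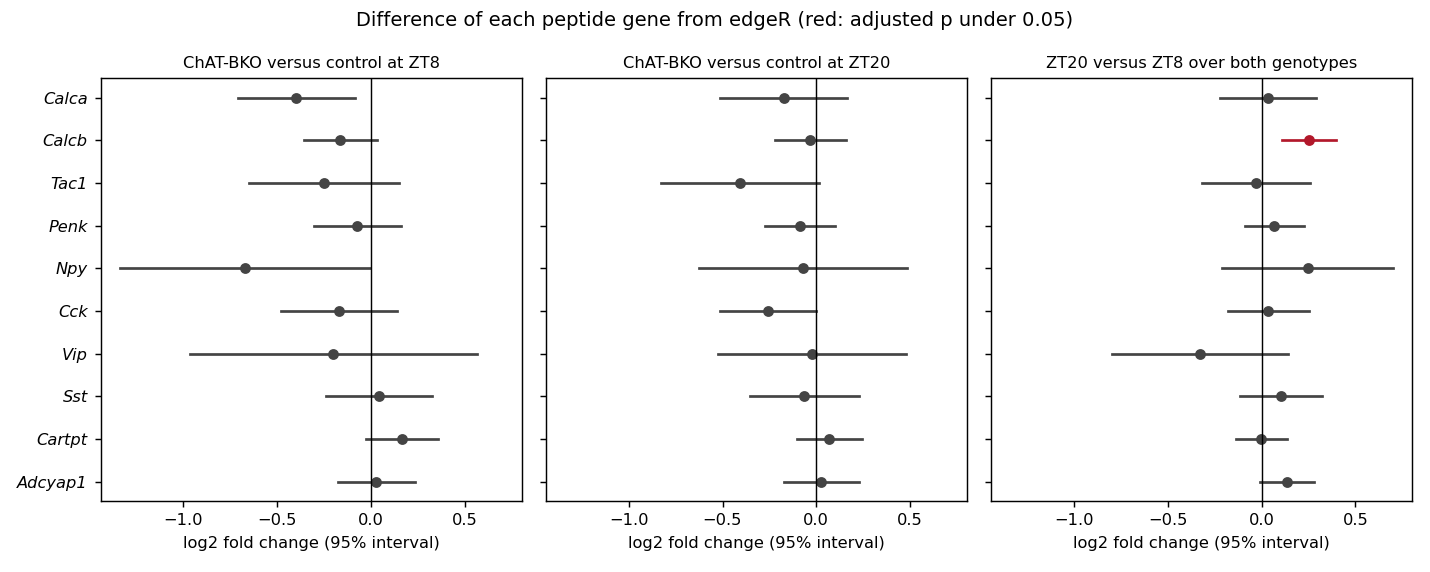
log2 fold change of each peptide gene with its 95% interval from edgeR, for ChAT-BKO over control at ZT8 and at ZT20 and for ZT20 over ZT8 in all 24 IP libraries. Calcb in the comparison of the times is the only gene drawn in red, for an adjusted p under 0.05, and the intervals of Npy and Vip are the widest.

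Over both times together, with 12 libraries per genotype, edgeR called none of the 10 genes and 0.741% of all genes, and 2 of the 10 had an unadjusted p under 0.05, where 7.04% of all genes did. These were Calca at -0.28 ± 0.13 (adjusted p = 0.600 by edgeR) and Tac1 at -0.33 ± 0.14 (adjusted p = 0.598). DESeq2 and limma voom called none of the 10. Cck followed at -0.21 ± 0.11 and Cartpt at 0.12 ± 0.07, with edgeR adjusted p of 0.734 and 0.808. Cartpt passed with the length slope as a covariate, at 0.15 ± 0.04 and an adjusted p of 0.0149, in an edgeR fit that called 1.86% of all genes. Both fold changes were negative in all 24 fits that left out 1 library, at -0.38 to -0.24 for Calca and -0.38 to -0.25 for Tac1.

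The difference of the genotype effects between the times, which asks whether the effect of BMAL1 loss on a peptide gene differs between them, called none of the 10 and 0.0% of all genes. At an unadjusted edgeR p under 0.05 it reached none of the 10 and 848 of all genes (3.9%), and DESeq2 and limma voom also called no gene, with 565 and 1029 at an unadjusted p under 0.05. For Calca the genotype effect was 0.24 ± 0.25 higher at ZT20 than at ZT8 (interval -0.28 to 0.75), for Calcb 0.14 ± 0.14 (-0.15 to 0.44) and for Npy 0.62 ± 0.44 (-0.29 to 1.52), all with an edgeR adjusted p of 1. Without 1 library the Calca value ran from 0.045 (without replicate 4 of ChAT-BKO at ZT20) to 0.37 (without replicate 4 of ChAT-BKO at ZT8). The larger negative value of Npy at ZT8 than at ZT20 was therefore not shown to differ between the times.

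Time of day was compared as ZT20 over ZT8. In controls edgeR called none of the 10 genes and 0.115% of all genes, with 1 of the 10 and 8.25% of all genes at an unadjusted p under 0.05. In ChAT-BKO mice it called none of the 10 and 0.285% of all genes, with 1 of the 10 and 9.42% of all genes at an unadjusted p under 0.05. DESeq2 and limma voom called none of the 10 in either genotype.

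In both genotypes that gene was Calcb. Its lowest, median and highest values in controls were 92.3, 110 and 129.6 CPM at ZT8 and 115, 126 and 143 at ZT20, and in ChAT-BKO mice 75.4, 100.5 and 112 at ZT8 and 100.7, 117 and 159.6 at ZT20. The times overlapped in both genotypes, with 3 of 6 ZT20 libraries above all ZT8 libraries in controls and 4 of 6 in ChAT-BKO mice. The log2 fold change was 0.18 ± 0.08 in controls (edgeR adjusted p = 0.540) and 0.33 ± 0.11 in ChAT-BKO mice (adjusted p = 0.260). With the length slope as a covariate it passed in ChAT-BKO mice, at 0.36 ± 0.06 and an edgeR adjusted p of 0.00094, in a fit that called 2.23% of all genes.

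Over both genotypes, with 12 libraries per time, Calcb passed edgeR with a log2 fold change of 0.25 ± 0.07 (interval 0.11 to 0.40, adjusted p = 0.0479), 1 of the 10 genes higher, where 1.69% of all genes were higher and 2.69% passed in either direction. No other of the 10 had an unadjusted p under 0.05, where 14.1% of all genes did. The call was marginal. It was kept by DESeq2 (adjusted p = 0.0194) and lost by limma voom (0.0652) and by edgeR with DESeq2 size factors (0.0523). It was also lost in 18 of the 24 fits that left out 1 library, where the adjusted p ran from 0.0282 to 0.0887 and the fold change from 0.21 to 0.28. None of the 9 sensory neuron markers passed the same test, with a median log2 fold change of 0.18 over both genotypes. In controls 9 of 9 were above 0, with a median of 0.59, and in ChAT-BKO mice 4 of 9, with a median of -0.11. Their summed level went from 10.9 to 20.9 CPM at ZT8 and from 9.20 to 27.1 at ZT20 in controls, and from 10.0 to 20.4 and from 12.2 to 22.9 in ChAT-BKO mice. Their part in the Calcb values was not tested.

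Calca, its neighbour and paralog, had 0.03 ± 0.13 in the same test (interval -0.22 to 0.29), with -0.08 in controls. Adcyap1, at 0.14 ± 0.07 (interval -0.01 to 0.28, adjusted p = 0.401 by edgeR), was the next gene by p. Vip was at -0.33 ± 0.23, with -0.41 in controls and -0.22 in ChAT-BKO mice and intervals wider than the difference. Npy was at 0.25 ± 0.22, with 0.59 ± 0.29 in ChAT-BKO mice (adjusted p = 0.554). Sst (0.10), Penk (0.07), Cck (0.04), Tac1 (-0.03) and Cartpt (-0.002) lay within their error of 0, though Sst and Penk passed with the length slope as a covariate, at 0.14 (edgeR adjusted p = 0.0223) and 0.08 (0.0451), in a fit that called 7.08% of all genes. The median over the 10 genes was 0.05, against 0.00 for all genes.

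To set the CGRP genes against each other, the log2 ratio of Calca over Calcb CPM was taken in each library, a measure chosen after these values were seen. It was 1.82 ± 0.16 (SD, n = 6) in controls and 1.58 ± 0.23 in ChAT-BKO mice at ZT8, 1.56 ± 0.18 and 1.39 ± 0.24 at ZT20, and 2.30 in the input. All 24 IP libraries, at 1.18 to 2.05, lay below the input. By two-sided exact permutation tests the difference between times was -0.26 in controls (exact p = 0.0281, adjusted over 4 tests 0.113) and -0.20 in ChAT-BKO mice (exact p = 0.186, adjusted 0.188). Between genotypes it was -0.24 at ZT8 (exact p = 0.0628, adjusted 0.126) and -0.17 at ZT20 (exact p = 0.188, adjusted 0.188), where 6 against 6 libraries can reach 0.00216. No difference held after adjustment. The ratio also moved with the length slope of the library, at r = -0.54, and the part of the slope in these differences was not tested.

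**Figure D4:**
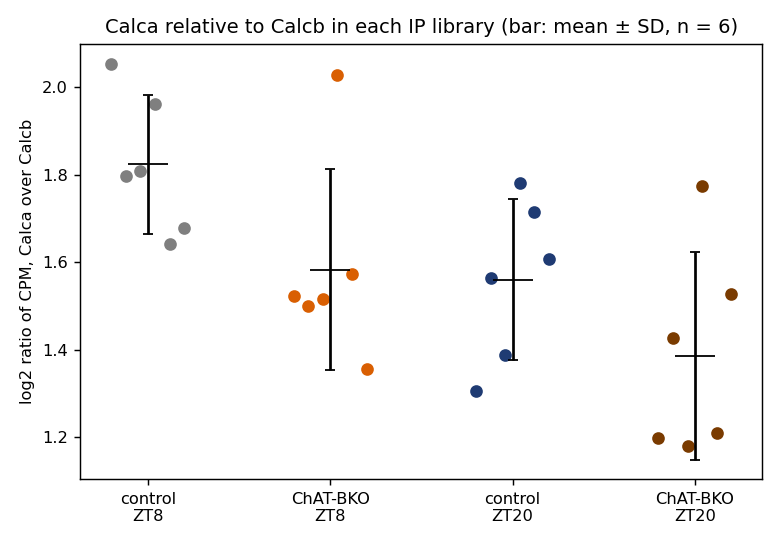
log2 ratio of Calca CPM over Calcb CPM in each IP library, with the mean and SD of 6 mice per group as bars. The groups overlap, and the means step from 1.82 in controls at ZT8 to 1.39 in ChAT-BKO mice at ZT20. The vertical axis does not start at 0.

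The spread between mice was itself uneven among the genes. Calca varied with a within-group SD of 0.36 on the log2 scale, at percentile 99.3 of the 6649 genes with a mean of at least 20 CPM, whose median SD was 0.12. Cck and Sst varied by 0.31 each (percentiles 98.6 and 98.7), Penk by 0.22, Calcb and Adcyap1 by 0.20 and Cartpt by 0.18 (percentiles 81.3 to 91.0). The scarce genes Vip (0.60), Npy (0.56) and Tac1 (0.35) were read from too few counts for this ranking.

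Much of the spread of Penk, Cck and Sst, and less of that of Calca and Calcb, moved with the length slope of the library, which relates a gene's level to its exon length and which 2 libraries, replicate 3 of ChAT-BKO at ZT20 and replicate 5 of the controls at ZT8, held farthest from the median. With group means removed, Penk correlated with the slope over 24 libraries at Pearson r = -0.95 and Spearman rho = -0.94, Cck at -0.94 and -0.97 and Sst at -0.95 and -0.92, each with a permutation p of 1e-05 for both, the smallest that 100000 permutations can give. Without the 2 farthest libraries r was -0.92 for Penk, -0.93 for Cck and -0.92 for Sst, and within the 4 groups it ran from -0.99 to -0.90, -0.98 to -0.97 and -0.99 to -0.85. Libraries with a higher slope, in which long mRNAs weigh more, held less of these 3 in every group.

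Calca (r = -0.71, rho = -0.72, permutation p = 0.0001 and 0.00014) and Calcb (r = -0.70, rho = -0.74, permutation p = 0.00013 and 8e-05) followed the slope less closely, at -0.67 and -0.70 without the 2 farthest libraries. Cartpt was at r = -0.84 and rho = -0.81 (permutation p = 1e-05 and 2e-05), and at -0.77 without the 2 libraries, but at 0.51 within the 6 controls at ZT20. For Tac1 r was -0.72 and rho -0.66 (permutation p = 7e-05 and 0.00053), for Adcyap1 -0.59 and -0.58 (0.00234 and 0.0035) and for Npy -0.54 and -0.59 (0.00658 and 0.00299), with -0.59, -0.47 and -0.55 without the 2 libraries. Vip showed no such relation that passed, with r = -0.29 and rho = -0.28 (permutation p = 0.163 and 0.185). These were 10 relations, and over the 10 the adjusted p of r was 0.0073 or less for all but Vip. The slope is itself computed from all genes, and 44.4% of the 13721 genes of at least 1 CPM had an r as far from 0 as the weakest of these 9, with 22.4% on the negative side. The exon lengths of the 9 ran from 566 bases (Npy) to 3777 (Adcyap1), and Tac1 had 3399, so the relation was not limited to short genes. The slope did not separate the groups, whose means ran from -0.011 to 0.013 with SDs of 0.037 to 0.076.

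**Figure D5:**
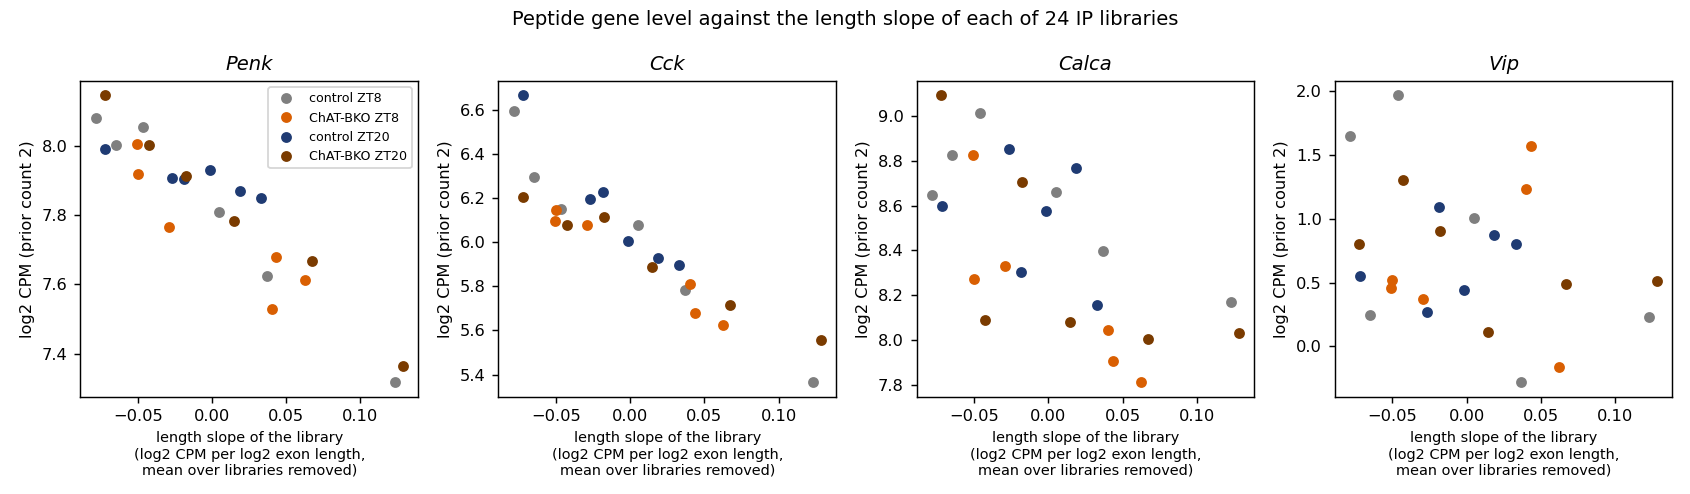
log2 CPM of Penk, Cck, Calca and Vip against the length slope of each of the 24 IP libraries, coloured by genotype and time. Penk and Cck fall along a line through all 4 groups, Calca scatters widely about one and Vip follows none.

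After the slope was taken out, Penk, Cck, Sst and Cartpt had within-group SDs of 0.07, 0.11, 0.10 and 0.10, close to the median gene at 0.08. Calca kept 0.26 and stayed at percentile 99.4, Adcyap1 kept 0.16 at percentile 97.1 and Calcb kept 0.15 at percentile 94.7. Calca and Calcb varied together, at r = 0.87 over 24 libraries with group means removed and 0.75 without the slope, a description that includes any reads the paralogs share.

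The genes most like each peptide gene were those with the highest r of log2 CPM over the 24 libraries, group means removed, among 13721 genes of at least 1 CPM. For Calca they were Uts2 (urotensin 2, r = 0.92), Ucn (urocortin, 0.91) and Hagh (0.90), and for Calcb Ucn (0.89), Uts2 (0.89) and Calca (0.87). Uts2 and Ucn are peptide genes, at means of 176 and 6.58 CPM in the IP. Uts2 was enriched over the input by 4.19 on the log2 scale, and Ucn had 1 count in the input, too few for a ratio. With the slope taken out, a step added after the data were seen, the same 3 genes led for Calca (0.85, 0.84 and 0.81), while for Calcb 1 of the 3 stayed.

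Penk was most like Zfp622, Arl6ip4 and Bex3 (r = 0.97 to 0.98), Cck most like Timm13, Arpc4 and Trappc4 (0.97 to 0.98), Sst most like Psmb6, Mdh2 and Sem1 (0.95 to 0.96) and Cartpt most like Rpl31, Pdcd6 and Snrnp25 (0.92 to 0.93). With the slope taken out these genes' best r fell to 0.78 or less, except for Cartpt at 0.81, and 0 to 2 of each set of 3 stayed. Tac1 was most like Txnl4b, Camk2n1 and Tbc1d17 (0.87 to 0.89), Adcyap1 most like Kpna2, Tmem141 and Hnrnph1 (0.81 to 0.83), Npy most like Exosc2, Otulin and Gm30455 (0.76 to 0.77) and Vip most like Epop, Rbm38 and Clp1 (0.72 to 0.76). All genes in these correlations were read from the same 24 libraries and so share the depth and RNA quality of each library.

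Genes for peptide processing and dense core vesicles, which cut, pack and release peptides, were listed beside the precursors. Of these 16 genes 7 were above the input, where 36.3% of all genes tested were, and Cadps2 at 1.34 CPM per kb was the lowest. Chga (chromogranin A) at 610 CPM per kb, Pcsk1n (proSAAS, an inhibitor of prohormone convertase 1) at 478 and Vgf at 270 were the highest of the list, with log2 ratios over the input of 2.14, 0.31 and 1.94. Over both times 1 of the 16 was lower in ChAT-BKO mice by edgeR, Cadps2, which primes dense core vesicles for release, at -0.31 ± 0.07 (adjusted p = 0.0127), where 0.741% of all genes were called. Over both genotypes 1 was higher at ZT20, Pcsk1, which encodes prohormone convertase 1, at 0.33 ± 0.07 (adjusted p = 0.0084), where 1.69% of all genes were higher. No other of the 16 passed in the 7 comparisons.

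Of 21 receptor genes for these peptides 19 could be tested and 3 were above the input (36.3% of all genes), namely Vipr2 (a receptor for VIP and PACAP) at a log2 ratio of 3.11, Tacr1 (the substance P receptor) at 1.35 and Ramp2 at 0.36. The CGRP receptor gene Calcrl, at 6.90 CPM in the input, was at a mean of 0.105 CPM in the IP. That mean lies below what 3 counts give in every IP library but the deepest (0.0947 CPM). The highest levels were those of Adcyap1r1, the PACAP receptor, at 26.1 CPM per kb, Vipr2 at 10.1 and Tacr1 at 8.16. Ramp2, whose product forms the adrenomedullin receptor with that of Calcrl, was lower in ChAT-BKO mice over both times. Its log2 fold change was -0.32 ± 0.08 (edgeR adjusted p = 0.0431), where 0.212% of all genes were lower. Adcyap1r1 was lower at ZT20 over both genotypes at -0.13 ± 0.03 (edgeR adjusted p = 0.0050), where 1.0% of all genes were lower. The call on Ramp2 was kept in 7 of 24 fits that left out 1 library.

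Of 28 other peptide precursors 22 could be tested and 8 were above the input (36.3% of all genes), 4 of them without a count there and Ucn with 1. The highest of this list, which does not hold Uts2 (328 CPM per kb, above all 10 genes), were Nts (neurotensin) at 32.0 CPM per kb, Gal (galanin) at 13.9 and Ucn at 13.0, below the 6 most abundant of the 10 genes and above Adcyap1. Among the 22 none passed a comparison of genotypes by edgeR. Nppc (C-type natriuretic peptide) was higher at ZT20 over both genotypes, at 0.37 ± 0.09 (edgeR adjusted p = 0.0182), where 1.69% of all genes were higher.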

How the data were processed

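Expression was measured by RNA-seq of mRNA immunoprecipitated with tagged ribosomes from 24 spinal cords, 6 per genotype and time, and of 1 pooled input. The authors aligned reads to mm10 with STAR (version 2.7.5), estimated counts per gene with RSEM on an Ensembl annotation and deposited the expected counts without normalization, of which 6.11% were not whole. Groups were taken from the sample labels. Here the expected counts were rounded, and genes whose IP libraries held 10 or more counts in sum were kept.

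Comparisons were made with edgeR 4.0.16 in R 4.3.3 (quasi-likelihood test, TMM factors, Benjamini-Hochberg adjustment over all 21738 genes, threshold 0.05). SEs and 95% intervals came from the same fit. DESeq2 1.42.0, limma voom (limma 3.58.1), other size factors and filters, the length slope, the replicate number as a block and leaving out each library were alternatives. The fits were tested on simulated data. CPM used TMM factors, except that the input was scaled by its total alone, and log2 CPM a prior count of 2. Exon lengths were unions of GENCODE M21 exons, found for 87.1% of tested genes. Values per length depend on that annotation, and counts of a gene sum its isoforms. Intervals that rest on low counts cover counting error and the spread between these mice.

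The members and lists were chosen with earlier results of these data known. Named genes were the 10 members, called genes of the 3 peptide lists, the 2 with the smallest p per list and comparison where none was called, the 3 highest per length in each list, and the 3 genes most like each member by r.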

Additional observations from a re-analysis of the deposited data

Results flagged for a closer look

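In 1 of 40 groups of 6 libraries, 1 library stood apart from the other 5 by Dixon's 95% criterion, where chance gives about 1 in 20. Cck was at 101.0 CPM in replicate 2 of the controls at ZT20, and the other 5 controls lay between 59.5 and 74.8 CPM. Without that library the log2 fold change of Cck at ZT20 in ChAT-BKO mice was -0.14, against -0.26 with it. The length slope of that library was -0.072, the lowest of the 6 controls at ZT20, and its part in the Cck value was not tested.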

How the results depend on the processing

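Counts of called genes among the 10 stayed at 0 under every alternative for ChAT-BKO against control at ZT20, for the times in controls and for the difference of the genotype effects. With the length slope as a covariate the count became 2 at ZT8 (Calca and Cartpt), 1 for the times in ChAT-BKO mice (Calcb), 1 for the genotypes over both times (Cartpt) and 3 for the times over both genotypes (Calcb, Penk and Sst), since that covariate takes out spread that moves with the slope. For the times over both genotypes it became 0 with DESeq2 size factors and with limma voom. Without 1 library it was 0 to 1, and 1 only without replicate 1 or 3 of the controls at ZT8, 1 or 5 of the controls at ZT20, 3 of ChAT-BKO at ZT8 or 2 of ChAT-BKO at ZT20.

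With the replicate number as a replicate block 1 gene was called at ZT8, Calca at -0.42 (edgeR adjusted p = 0.0064). The numbers were not shown to pair the libraries. Deviations of libraries with the same number correlated at -0.17 to 0.27 between genotypes at ZT8, -0.08 to 0.24 at ZT20, 0.0087 to 0.36 between times in controls and -0.20 to 0.10 in ChAT-BKO mice, and 0 to 3 of 12 libraries were closest to their own number. The block moved the calls over all genes from 40 to 69 at ZT8 and from 25 to 86 for the times in controls, lost the call on Ramp2 (adjusted p = 0.0802) and changed the sign of Cartpt over time to 0.0048.

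Fold changes that changed sign were all small. With the length slope these were Calcb 0.011, Npy 0.11, Vip 0.035 and Sst 0.035 for the genotypes at ZT20, and Tac1 0.034 and Cartpt 0.012 for the times over both genotypes. With limma voom they were Adcyap1 -0.0038 for the genotypes at ZT20 and Calca -0.017 over time. The IP ratio of Adcyap1 became 0.38 with TMM factors that include the input and 0.30 with DESeq2 size factors. The cause was not tested. Without 1 library the genotype effect at ZT8 ran from -0.45 to 0.034 for Vip, -0.043 to 0.14 for Sst and -0.020 to 0.090 for Adcyap1. At ZT20 it ran from -0.11 to 0.022 for Calcb, -0.28 to 0.12 for Npy, -0.15 to 0.067 for Vip, -0.20 to 0.054 for Sst, -0.0100 to 0.12 for Cartpt and -0.030 to 0.070 for Adcyap1. The effect of time ran from -0.16 to 0.0031 for Calca in controls, -0.34 to 0.029 for Vip in ChAT-BKO mice and, over both genotypes, -0.061 to 0.096 for Calca, -0.089 to 0.046 for Tac1, -0.025 to 0.092 for Cck and -0.037 to 0.025 for Cartpt.

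For all genes the calls at ZT8 ran from 38 to 164 over the alternatives with all libraries and at ZT20 from 45 to 168, the most with the length slope. DESeq2 called 70 and 91 genes there, 127 for the times in controls and 225 in ChAT-BKO mice, where edgeR called 25 and 62. Depth limits Vip, Npy and Tac1, and the single input limits every ratio over it.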

Other observations

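Among the other peptide genes, those with the smallest p were not called in the comparisons within a time or a genotype, by edgeR with adjustment over all genes. In ChAT-BKO against control at ZT8 they were Pnoc (log2 fold change 0.28) and Pomc (-0.81) of the other precursors, Cadps2 (-0.30) and Vgf (-0.16) of the processing genes, and Ramp2 (-0.28) and Sstr2 (-0.35) of the receptors. At ZT20 they were Pdyn (0.27) and Pnoc (0.17), Cadps2 (-0.33) and Pcsk1n (-0.14), and Vipr2 (0.32) and Ramp2 (-0.37). Between the times in controls they were Nppc (0.46) and Pnoc (0.18), Pcsk1 (0.23) and Scg2 (0.12), and Adcyap1r1 (-0.14) and Npy1r (0.43), and in ChAT-BKO mice Nppc (0.29) and Gal (0.31), Pcsk1 (0.43) and Vgf (0.16), and Sstr1 (0.33) and Adcyap1r1 (-0.12).

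Pnoc and Pdyn, the precursors of nociceptin and dynorphin, stood at 0.23 and 0.24 over both times in ChAT-BKO mice, with edgeR adjusted p of 0.149 and 0.390. For the difference of the genotype effects the smallest p were those of Sct (1.20) and Gal (0.61), Vgf (0.21) and Ptprn (0.09), and Oprd1 (0.42) and Sstr3 (0.24), all with an edgeR adjusted p of 1.

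The summed CPM of the 10 genes had a median of 1019 in controls and 834 in ChAT-BKO mice at ZT8 and of 1018 and 867 at ZT20, with ranges of 708 to 1170, 696 to 1096, 860 to 1083 and 728 to 1297 that overlapped, and was 522 in the input.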
